A study of Homo sapiens with 9 samples.

Results

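The proteasome subunit genes were chosen by name, as the rows whose symbol is PSMA to PSMG, each followed by a number, with pseudogenes left out. They were 48 of 56541 genes in the table, and 46 had enough counts to be tested. By symbol they fall into 19 core genes (PSMA and PSMB), 20 regulatory genes (PSMC and PSMD) and 9 genes of activators, an inhibitor or assembly factors (PSME, PSMF and PSMG). The rule itself uses symbols and no measured value.

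The proteasome is the main protease of the cytosol and nucleus, and it degrades proteins tagged with ubiquitin. Its barrel-shaped core holds outer rings of alpha subunits, which gate the entrance, around inner rings of beta subunits, some of which cut protein chains. A regulatory particle caps the barrel: its base has a ring of ATPases that unfold substrates, and its lid removes ubiquitin. Immune cells and blood cells can replace the cutting subunits by immunoproteasome subunits, whose products serve antigen presentation. When proteasome activity falls, the transcription factor NFE2L1 is known to raise the proteasome genes together through antioxidant response elements in their promoters.

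RNA was measured in MOLM-13, a human acute myeloid leukaemia cell line from peripheral blood, in 3 groups of 3 libraries. The shCONTROL cells carried a control hairpin. In the shBCLAF1 cells the hairpin targeted BCLAF1, a protein of the nucleus that binds RNA. The RIP (RNA immunoprecipitation) group is RNA recovered with BCLAF1 out of shCONTROL cells. Doxycycline was given to all cells, controls included, at 200 ng/µL for 4 days, and RIP samples started from more cells. All samples carry the same batch label. The labels do not say whether the hairpin lines were clones, name no second hairpin and no mock precipitation, and do not say that replicates were separate cultures. The p-values therefore measure the spread between these libraries, which may be technical.

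Libraries held 25819144 to 36635268 estimated counts, the lowest totals being in the RIP. The level of a gene is given in CPM, the usual count scaled to library size, here with TMM factors over all 9 libraries. It is not divided by transcript length and is compared only within a gene. BCLAF1 stood at 325, 328 and 312 CPM in shCONTROL and 115, 125 and 99.9 in shBCLAF1 (log2 fold change -1.50 with SE 0.08, adjusted p 2.06e-04), and at 1147, 1059 and 1033 in the RIP. All 9 genes of a myeloid leukaemia marker list were detected in each group, summing to 1876 to 1960 CPM in shCONTROL. Its sum was 3553 to 4020 CPM in shBCLAF1, where 3 of the 9 were higher and 3 lower, beside 15.5% and 16.9% of all genes tested. LYZ carried the larger sum, since the other 8 genes summed to 1176 to 1205 CPM in shCONTROL and 1120.4 to 1203 in shBCLAF1. CD3E and CD8A (T cell), MS4A1 (B cell), HBB (erythroid) and the 3 epithelial markers were listed at 0 in all 9 libraries.

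A TGACNNNGC motif, the core of the antioxidant response element, was looked for on both strands of RefSeq promoters, because many members moved together after knock-down. The promoters reach from 250 bases before to 50 after each gene start (GRCh38.p14). Windows of 60 bases around the motif are printed for 5 genes that were higher after knock-down (PSMB3, PSMD3, PSMD12, PSME1 and PSME2), and then for PSMG1, which was lower, and PSMD5, which did not pass the test. They run 5′ to 3′ on the gene's strand, with the motif in capitals.
PSMB3: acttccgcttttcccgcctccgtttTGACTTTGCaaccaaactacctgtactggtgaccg
PSMD3: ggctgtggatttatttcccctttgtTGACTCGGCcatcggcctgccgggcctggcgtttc
PSMD12: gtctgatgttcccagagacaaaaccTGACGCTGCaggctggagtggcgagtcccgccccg
PSME1: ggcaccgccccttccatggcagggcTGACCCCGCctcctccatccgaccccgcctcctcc
PSME2: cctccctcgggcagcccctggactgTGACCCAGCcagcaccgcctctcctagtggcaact
PSMG1: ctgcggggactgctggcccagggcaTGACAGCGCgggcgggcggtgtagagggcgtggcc
PSMD5: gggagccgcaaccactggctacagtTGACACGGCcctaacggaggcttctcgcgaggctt

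The PSMB3 window lies at chr17:38752612-38752671 (plus strand, motif starting 104 bases before the gene start). The PSMD3 window lies at chr17:39980745-39980804 (plus strand, motif starting 37 bases before the gene start), and the PSMD12 window at chr17:67366708-67366767 (minus strand, motif starting 165 bases before the gene start). The PSME1 window lies at chr14:24136083-24136142 (plus strand, motif starting 86 bases before the gene start), and the PSME2 window at chr14:24146751-24146810 (minus strand, motif starting 175 bases before the gene start). The PSMG1 window lies at chr21:39183600-39183659 (minus strand, motif starting 183 bases before the start of the promoter entry), and the PSMD5 window at chr9:120843022-120843081 (minus strand, motif starting 134 bases before the gene start). For PSMG1 the start used is that of its promoter entry, which lies inside the annotated gene and not at its outermost start. No motif shown overlaps another motif searched. The windows shown are examples. PSMC4, PSMC5 and PSMD1, which were higher after knock-down, also held the motif. So did PSMA4, PSMB9, PSMD9, PSME4 and PSMG2, which did not pass that test. A match is a run of letters and not a measured binding site.

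Promoters of 42 of the 48 members were in the table, and 15 of them (35.7%) held TGACNNNGC, against 16.1% of all 27305 genes with a promoter. Of the 15 members with the motif, 8 were higher and 1 lower after knock-down, with a median log2 fold change of 0.22. Of the 25 tested members without it, 13 were higher and 2 lower, with a median of 0.27. The share of risers was similar with and without these letters, a description across genes. The part of this motif in the rises was not tested. Other motifs were also more frequent among members: CCGGAAG, the ETS family core, was in 35.7% against 12.2%, GGGCGG, the GC box, in 69.0% against 48.3%, and CCAAT, the NF-Y box, in 47.6% against 39.7%.

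After BCLAF1 knock-down, most proteasome genes rose by a small amount. Of the 46 tested members, 26 rose and 3 fell with an adjusted p under 0.05, where 15.5% of all 16961 genes tested were higher and 16.9% lower. The median log2 fold change of the members was 0.26, against 0.02 over all genes tested. The shBCLAF1 and shCONTROL libraries did not overlap for 37 members, where this held for 49.3% of all genes. In bulk RNA, more cells of a type and more RNA per cell cannot be told apart. In a fit of all 9 libraries, whose spread includes that of the RIP, 7 members were higher and 2 lower, and 1129 of all genes were higher and 1318 lower in place of 2625 and 2859. Over the 12 alternatives, 6 of the 26 rises held in every fit, those of PSMB2, PSMB5, PSMC4, PSMD2, PSMD11 and PSMD12.

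**Figure D1:**
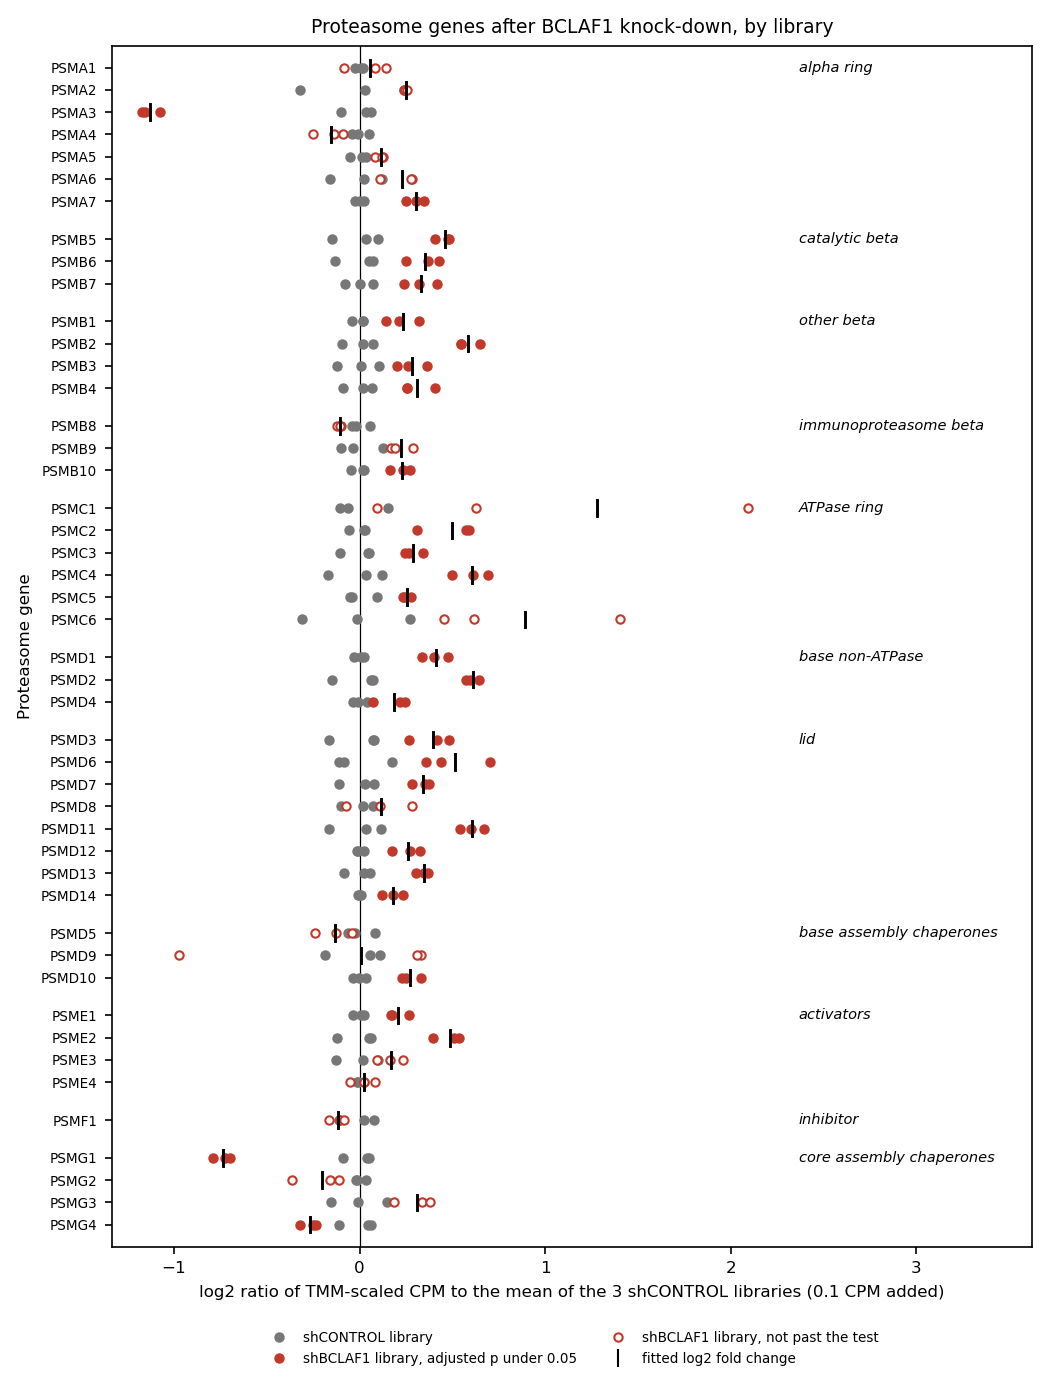
Each row is a proteasome gene and each point a library, placed on the x axis by the log2 ratio of its TMM-scaled CPM to the mean of the 3 shCONTROL libraries (0.1 CPM added). Grey points are shCONTROL, red points shBCLAF1 (filled where the adjusted p is under 0.05), and black ticks the fitted log2 fold change. Most red points lie right of 0, while PSMA3 (-1.13) and PSMG1 (-0.73) lie left of it.

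Most of the rises were of core and regulatory genes. Among the 17 core genes tested, 9 were higher and 1 lower, with a median log2 fold change of 0.23. Among the 20 regulatory genes 15 were higher and none lower (median 0.34). Among the 9 activator or assembly genes 2 were higher and 2 lower (median 0.02). The difference between classes was not tested, since genes are not replicates. Summed over its genes, the core stood at 1543 ± 53.5 CPM in shCONTROL libraries and 1725 ± 70.2 in shBCLAF1 libraries (SD, n = 3). The regulatory genes summed to 1559 ± 70.8 and 1992 ± 96.7 CPM, and the third class to 718 ± 26.3 and 728 ± 22.8 CPM. Only the third class overlapped between the 2 groups.

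**Figure D2:**
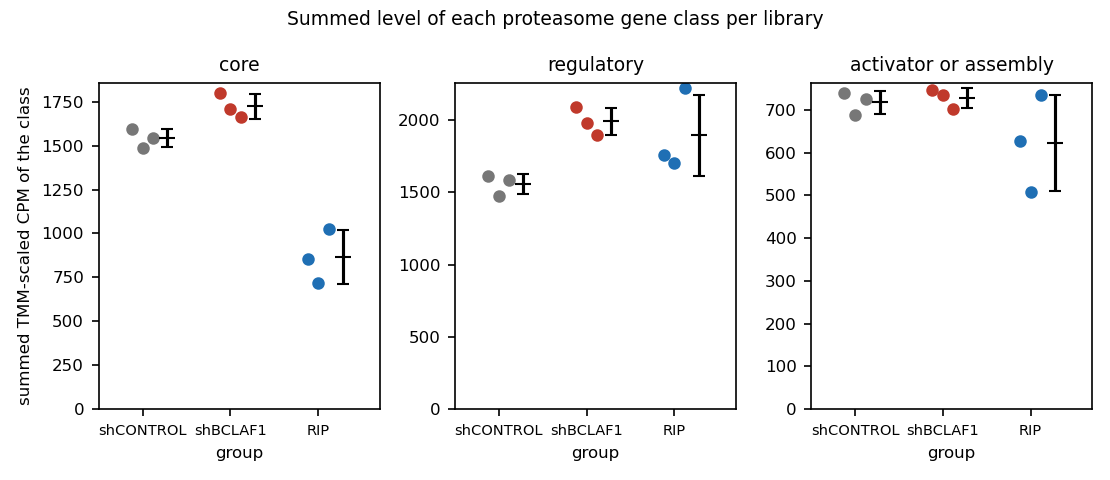
Summed TMM-scaled CPM of each class (y axis, from 0) in every library of shCONTROL, shBCLAF1 and the RIP (x axis), with the mean and SD of each group beside the points. The core falls to 866 ± 154 CPM in the RIP from 1543 ± 53.5 in shCONTROL, while the regulatory class stands at 1895 ± 284 against 1559 ± 70.8, a difference carried by PSMC3 and PSMC5.

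All 3 genes of the standard catalytic subunits rose. PSMB5, the chymotrypsin-like subunit, stood at 66.1, 58.3 and 69.2 CPM in shCONTROL and 90.3, 85.6 and 89.8 in shBCLAF1 (log2 fold change 0.46 with SE 0.07, adjusted p 0.00418). PSMB6, the caspase-like subunit, stood at 52.8, 46.5 and 53.5 CPM in shCONTROL against 68.6, 65.8 and 60.5 in shBCLAF1 (log2 fold change 0.36 with SE 0.08, adjusted p 0.0144). PSMB7, the trypsin-like subunit, stood at 80.0, 72.0 and 76.2 CPM in shCONTROL against 102, 95.0 and 89.8 in shBCLAF1 (log2 fold change 0.33 with SE 0.06, adjusted p 0.00969). For each of the 3 genes every shBCLAF1 library lay above every shCONTROL library. The calls of PSMB5, PSMB6 and PSMB7 held in 12, 9 and 11 of the 12 alternatives. The beta subunits that do not cut also rose, 4 of 4, with a median log2 fold change of 0.30. The largest of these rises was that of PSMB2, at 131, 116 and 126 CPM in shCONTROL and 195, 182 and 182 in shBCLAF1 (log2 fold change 0.59 with SE 0.06, adjusted p 8.41e-04). PSMB1, PSMB3 and PSMB4 had log2 fold changes of 0.23, 0.28 and 0.31 (adjusted p 0.0188, 0.0274 and 0.0114). Their calls held in 10, 7 and 11 of the 12 alternatives.

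The immunoproteasome subunits, which take the places of the catalytic ones, had 1 call among 3. PSMB10 stood at 52.6, 50.1 and 52.8 CPM in shCONTROL and 61.1, 58.2 and 62.6 in shBCLAF1 (log2 fold change 0.23 with SE 0.05, adjusted p 0.0119). PSMB8 was at 83.9, 85.3 and 89.7 CPM in shCONTROL against 80.6, 79.4 and 80.2 in shBCLAF1 (log2 fold change -0.10 with SE 0.04, adjusted p 0.103), and its shBCLAF1 libraries all lay below shCONTROL. PSMB9 was at 9.37, 7.99 and 8.37 CPM in shCONTROL against 10.5, 9.67 and 9.82 in shBCLAF1 (log2 fold change 0.22 with SE 0.09, adjusted p 0.128), with all shBCLAF1 libraries above shCONTROL. PSMB8 and PSMB9 are neighbours on chromosome 6, 9513 bases apart, with TAP1 between them. PSMA8 and PSMB11, subunits known from testis and thymus, were listed at 0 in all 9 libraries, where 3 counts would be 0.0788 to 0.118 CPM.

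The alpha ring behaved unevenly, with 1 member higher and 1 lower of 7, and it held the largest change of all the members that passed the test. PSMA3 stood at 123, 110.1 and 121 CPM in shCONTROL and 56.0, 52.9 and 52.4 in shBCLAF1 (log2 fold change -1.13 with SE 0.06, adjusted p 1.64e-04), so each shBCLAF1 library lay far below the lowest shCONTROL library. PSMA7 stood at 103, 99.7 and 102 CPM in shCONTROL against 129, 121 and 126 in shBCLAF1 (log2 fold change 0.31 with SE 0.04, adjusted p 0.00229). PSMA1, PSMA2, PSMA4, PSMA5 and PSMA6 had log2 fold changes of 0.06, 0.25, -0.15, 0.11 and 0.23 and did not pass the test (adjusted p 0.0723 to 0.567). No beta subunit gene was lower by the same test. PSMA3 (14:58244843-58272004) overlaps the antisense gene PSMA3-AS1 (14:58265365-58298137), and the sources used here do not say whether counting used strand. PSMA3-AS1 stood at 61.9, 69.8 and 65.4 CPM in shCONTROL and 56.5, 59.2 and 65.3 in shBCLAF1 (log2 fold change -0.12 with SE 0.07, adjusted p 0.275). The deposited values thus have a fall of PSMA3 beside overlapping groups for PSMA3-AS1.

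In the regulatory particle the rise covered base and lid. Of the 6 ATPases, which unfold substrates, 4 were higher and none lower. Their median log2 fold change was 0.55, which includes the uncertain value of PSMC1 and the PSMC6 value that was not called. PSMC4 stood at 71.5, 58.3 and 67.2 CPM in shCONTROL and 106, 100.2 and 92.8 in shBCLAF1 (log2 fold change 0.61 with SE 0.09, adjusted p 0.00366), with no overlap. PSMC2, PSMC3 and PSMC5 had log2 fold changes of 0.50, 0.29 and 0.25 (adjusted p 0.00585, 0.0115 and 0.0116). PSMC6 ranged widely, at 15.7, 23.6 and 19.3 CPM in shCONTROL against 30.0, 51.9 and 26.8 in shBCLAF1 (log2 fold change 0.89 with SE 0.29, adjusted p 0.0594), and was not called although its groups did not overlap.

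The counts of PSMC1, the remaining ATPase, cannot be assigned with certainty. The gene was listed with 12 to 16 counts (shCONTROL), 16 to 73 (shBCLAF1) and 15 to 19 (RIP), while the pseudogene PSMC1P1 (3:68635707-68637247) had 871 to 1011, 1244 to 1493 and 1026 to 2075. The part of PSMC1 reads counted at the copy was not tested. PSMC1P1 stood at 28.6, 25.8 and 28.1 CPM in shCONTROL and 39.2, 32.9 and 35.4 in shBCLAF1 (log2 fold change 0.38 with SE 0.08, adjusted p 0.0151). PSMC1 itself had a log2 fold change 1.28 with SE 0.56, adjusted p 0.140. PSMC1 is therefore left out of statements on single ATPases.

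**Figure D3:**
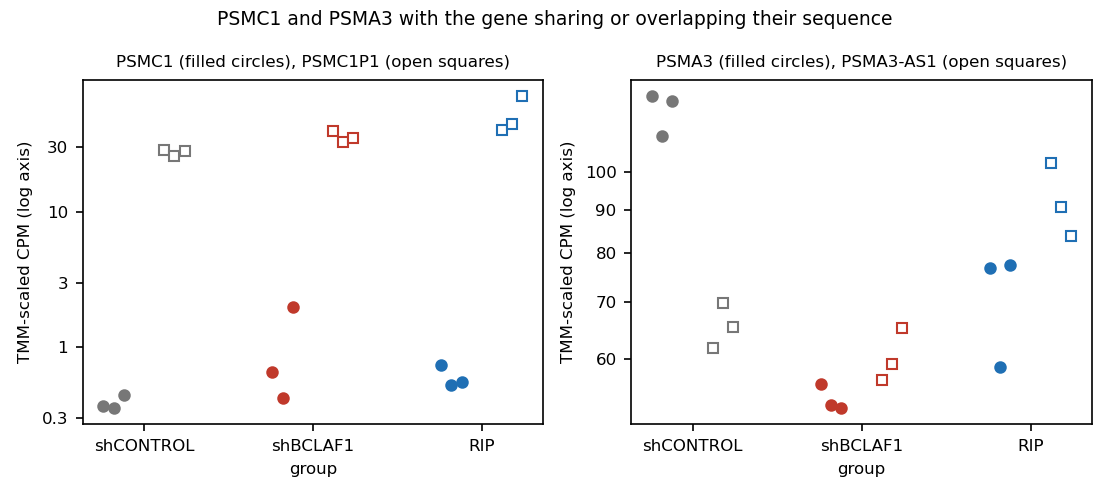
TMM-scaled CPM per library (log axis) for PSMC1 with its pseudogene PSMC1P1 and for PSMA3 with its antisense gene PSMA3-AS1, in shCONTROL, shBCLAF1 and the RIP. PSMC1 lies under 2 CPM in every library beside 25.8 CPM or more of PSMC1P1, and PSMA3 drops in shBCLAF1 to 52.4 to 56.0 CPM while PSMA3-AS1 overlaps between shCONTROL and shBCLAF1.

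The large scaffold and ubiquitin-binding subunits of the base all rose, 3 of 3. PSMD2, the base scaffold that also docks shuttle proteins, stood at 143, 123 and 142 CPM in shCONTROL and 213, 203 and 206 in shBCLAF1 (log2 fold change 0.61 with SE 0.07, adjusted p 0.00124). PSMD1, the other scaffold, had a log2 fold change 0.41 with SE 0.05, adjusted p 0.00134. The ubiquitin receptor PSMD4 was at 90.6, 85.9 and 87.4 CPM in shCONTROL against 104, 92.7 and 102 in shBCLAF1 (log2 fold change 0.18 with SE 0.05, adjusted p 0.0446), and this call was lost in 8 of the 12 alternatives.

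The lid had 7 of 8 members higher, with a median log2 fold change of 0.34. PSMD11, a lid scaffold subunit whose level is known to set the amount of assembled proteasome in stem cells, stood at 114, 93.5 and 107 CPM in shCONTROL and 167, 159 and 153 in shBCLAF1 (log2 fold change 0.61 with SE 0.08, adjusted p 0.00238). PSMD14, the deubiquitinase of the lid, stood at 77.1, 77.6 and 76.9 CPM in shCONTROL against 90.9, 87.3 and 83.8 in shBCLAF1 (log2 fold change 0.18 with SE 0.04, adjusted p 0.0205). PSMD6 stood at 60.6, 50.7 and 49.7 CPM in shCONTROL against 87.3, 72.9 and 68.9 in shBCLAF1 (log2 fold change 0.51 with SE 0.12, adjusted p 0.0187). No shBCLAF1 library of these 3 genes fell below the highest shCONTROL library. The calls of PSMD11, PSMD14 and PSMD6 held in 12, 8 and 9 of the 12 alternatives. PSMD3, PSMD7, PSMD12 and PSMD13 had log2 fold changes of 0.40, 0.34, 0.26 and 0.35, and PSMD8 was not called (log2 fold change 0.12, adjusted p 0.423).

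The base assembly chaperones, which carry PSMD symbols but leave the finished particle, had a single call among 3. PSMD10 (gankyrin) had a log2 fold change 0.27 with SE 0.06, adjusted p 0.0176. PSMD5, whose product holds ATPase subunits during assembly and can inhibit the finished particle, had a log2 fold change of -0.13 (adjusted p 0.193). PSMD9 stood at 20.7, 21.5 and 17.5 CPM in shCONTROL and 25.1, 10.1 and 24.7 in shBCLAF1, so replicate 2 was low and the log2 fold change of 0.01 had an SE of 0.34. Without shBCLAF1 replicate 1 or 3 the value was -0.19 or -0.17, not called in either case.

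The activators had 2 of 4 members higher, those of the interferon-inducible pair. PSME1 and PSME2, which form 1 mixed ring that opens the core without ATP, lie 4403 bases apart on chromosome 14. PSME2 was at 33.9, 30.0 and 34.1 CPM in shCONTROL and 46.5, 43.0 and 47.5 in shBCLAF1 (log2 fold change 0.48 with SE 0.07, adjusted p 0.00368). PSME1 was at 77.8, 76.9 and 74.4 CPM in shCONTROL against 91.8, 85.8 and 86.3 in shBCLAF1 (log2 fold change 0.21 with SE 0.04, adjusted p 0.0133). The nuclear activators PSME3 and PSME4 had a log2 fold change of 0.17 (adjusted p 0.118) and a log2 fold change of 0.02 (adjusted p 0.749), and the inhibitor PSMF1 had a log2 fold change of -0.11 (adjusted p 0.185).

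Of the 4 chaperones that build the alpha ring, 2 were lower and none higher (median log2 fold change -0.23), and the call of PSMG1 alone held in all 12 alternatives. PSMG1, which pairs with PSMG2, stood at 44.0, 40.0 and 43.7 CPM in shCONTROL and 26.2, 25.7 and 24.6 in shBCLAF1 (log2 fold change -0.73 with SE 0.06, adjusted p 5.20e-04), with no overlap. PSMG2 stood at 64.9, 67.1 and 64.7 CPM in shCONTROL against 60.8, 58.8 and 50.9 in shBCLAF1 (log2 fold change -0.20 with SE 0.07, adjusted p 0.0863). The other pair is PSMG3 with PSMG4. PSMG4 fell (log2 fold change -0.26 with SE 0.07, adjusted p 0.0301), a call lost in 7 of the 12 alternatives, and PSMG3 was not called (log2 fold change 0.31, adjusted p 0.0545) although all its shBCLAF1 libraries lay above shCONTROL. POMP, the maturation factor of the core, was higher (log2 fold change 0.21, adjusted p 0.0310).

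Genes that serve the proteasome from outside moved in both directions after knock-down, as did all genes tested (15.5% higher and 16.9% lower). These shares also stand beside the counts of the lists that follow. Of 12 proteasome-associated genes, 4 were higher and 2 lower (median log2 fold change 0.12). ADRM1, a ubiquitin receptor of the base, stood at 70.2, 61.2 and 70.0 CPM in shCONTROL and 105, 97.0 and 113 in shBCLAF1 (log2 fold change 0.65 with SE 0.08, adjusted p 0.00192). The ubiquitin ligase UBE3C rose (log2 fold change 0.34, adjusted p 6.72e-04). The deubiquitinase USP14 and the base chaperone PAAF1 fell (log2 fold changes -0.26 and -0.38, adjusted p 0.0120 and 0.0119).

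In the NFE2L1 pathway 3 of 10 genes were higher and 1 lower (median 0.13). NFE2L1 itself stood at 128, 141 and 137 CPM in shCONTROL against 133, 134 and 130.1 in shBCLAF1 (log2 fold change -0.02 with SE 0.05, adjusted p 0.734), so its groups overlapped. DDI2, the protease that cuts NFE2L1 into its active form, had a log2 fold change of 0.20 (adjusted p 0.0132), and MAFK, a small MAF partner, had a log2 fold change of 0.27 (adjusted p 0.0184). SYVN1, an endoplasmic reticulum ligase, had a log2 fold change of 0.16 (adjusted p 0.0476). The calls of SYVN1, MAFK and DDI2 were lost in 8, 5 and 2 of the 12 alternatives. KEAP1, the adaptor that marks NFE2L2 for degradation, fell with a log2 fold change of -0.34 (adjusted p 0.00886). VCP, the ATPase that extracts tagged proteins, was at 77.0, 354 and 345 CPM in shBCLAF1 against 210.3, 239.9 and 244 in shCONTROL. Its replicate 1 stood apart, a feature picked after its values were seen.

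Among 6 genes of ubiquitin and its activating enzymes 2 were higher and 2 lower. The polyubiquitin gene UBB rose (log2 fold change 0.35, adjusted p 0.00600). RPS27A, which encodes ubiquitin fused to a ribosomal protein, fell (log2 fold change -0.43, adjusted p 5.06e-04). Of 9 shuttle and VCP cofactor genes 2 were higher, UFD1 with a log2 fold change of 0.47 (adjusted p 0.00111) and NPLOC4 with a log2 fold change of 0.40 (adjusted p 0.00124), which form 1 complex on VCP. Another 2 were lower, among them FAF1 (log2 fold change -0.24, adjusted p 0.00571).

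Of 9 antigen processing genes 3 were higher and none lower (median log2 fold change 0.06). They included the peptide-loading factor TAPBP (log2 fold change 0.38, adjusted p 0.00277) and NLRC5, an activator of MHC class I genes (log2 fold change 0.28, adjusted p 0.00349). A list of 6 myeloid maturation markers moved with the knock-down as well: 4 of its 5 tested genes were higher, and its sum went from between 25.8 and 27.7 CPM in shCONTROL up to between 124 and 141 CPM in shBCLAF1. CD14, a defining monocyte marker, was listed at 0 in all libraries. The part of maturation in the proteasome values was not tested.

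RNA recovered with BCLAF1 held less RNA of nearly all core genes. Regulatory genes were higher (6 of 20) or lower (4 of 20) in shares near those of all genes, given next. Of the 46 members tested against shCONTROL RNA-seq, 9 were up and 25 down with an adjusted p under 0.05, where 24.6% of all 16727 genes were higher and 24.7% lower. The members' median log2 fold change was -0.54, against -0.05 over all genes. Where the log2 fold change also had to reach 1 in either direction, 4 were enriched and 16 depleted, against 11.0% and 13.5% of all genes. Libraries did not overlap for 40 members, and for 67.0% of all genes. Of the calls, 3 of 9 higher ones (PSMA7, PSMC3 and PSMC5) and 19 of 25 lower ones held in all 13 alternatives. Without shCONTROL replicate 1, 2 or 3 the higher calls numbered 5, 4 and 3.

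A RIP value is relative to total RNA of the RNA-seq libraries, so binding and differences in recovery cannot be told apart. Mitochondrially encoded mRNAs made up 0.199% to 0.342% of RIP counts and 2.60% to 2.90% of shCONTROL counts, and their part in the members' values was not tested. The erythroid marker HBA1 was listed at 0 in all RNA-seq libraries and at 1.24 to 2.67 CPM in the RIP. The shCONTROL libraries also serve as the control of the knock-down, so the 2 sets of fold changes are not independent, and each comparison's own values are given.

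**Figure D4:**
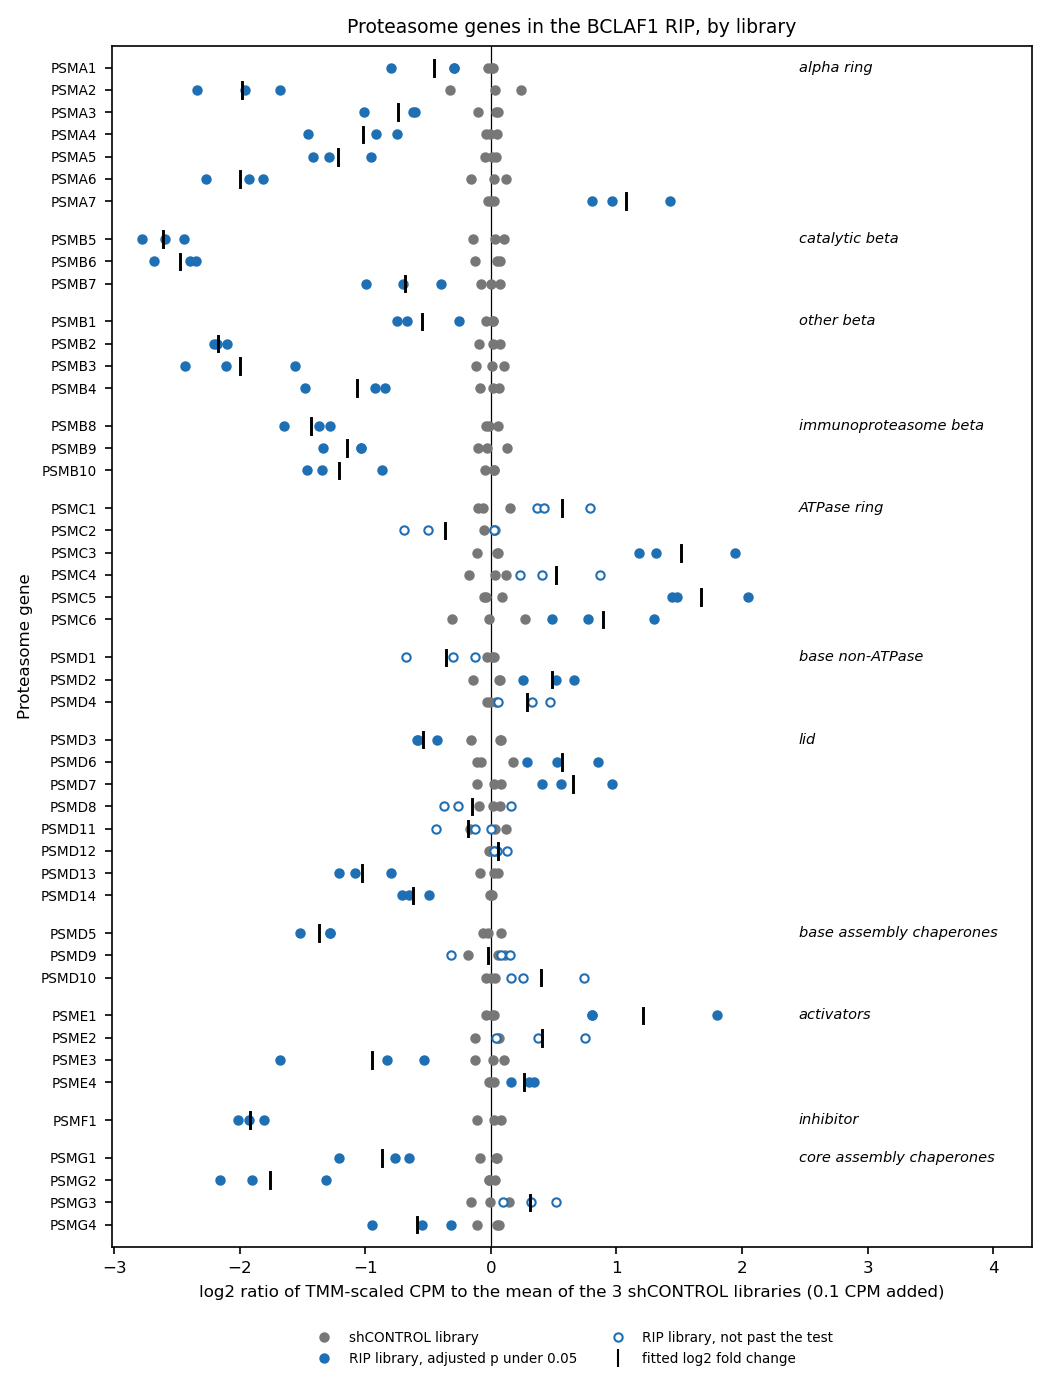
Each row is a proteasome gene and each point a library, placed by the log2 ratio of its TMM-scaled CPM to the mean of the 3 shCONTROL libraries (0.1 CPM added). Grey points are shCONTROL, blue points the RIP (filled where the adjusted p is under 0.05), and black ticks the fitted log2 fold change. Core genes lie left of 0 except PSMA7 (1.08), and PSMC3 (1.51) and PSMC5 (1.68) lie far to the right.

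Of the 17 core genes tested, 16 were lower in the RIP and 12 of them depleted, with a median log2 fold change of -1.21. Of the 20 regulatory genes 6 were higher and 4 lower (median 0.17), where 24.6% of all genes tested were higher and 24.7% lower. Of the 9 activator or assembly genes 2 were higher and 5 lower (median -0.59). The order held in each RIP library: its own core median lay at -1.28, -1.46 and -0.96, and its regulatory median at 0.11, 0.10 and 0.24. In CPM the core summed to 866 ± 154 in the RIP (SD, n = 3), below all shCONTROL libraries, and the regulatory genes to 1895 ± 284, above all of them. PSMC3 and PSMC5 carried that difference: without them, a choice made after their values were seen, the other 18 genes summed to 1389 ± 64.2 CPM in shCONTROL and 1378 ± 145 in the RIP, with overlapping libraries. The regulatory median depends on scaling and reference: it was 0.06 with total counts, and -0.04 against the averaged RNA-seq groups.

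**Figure D5:**
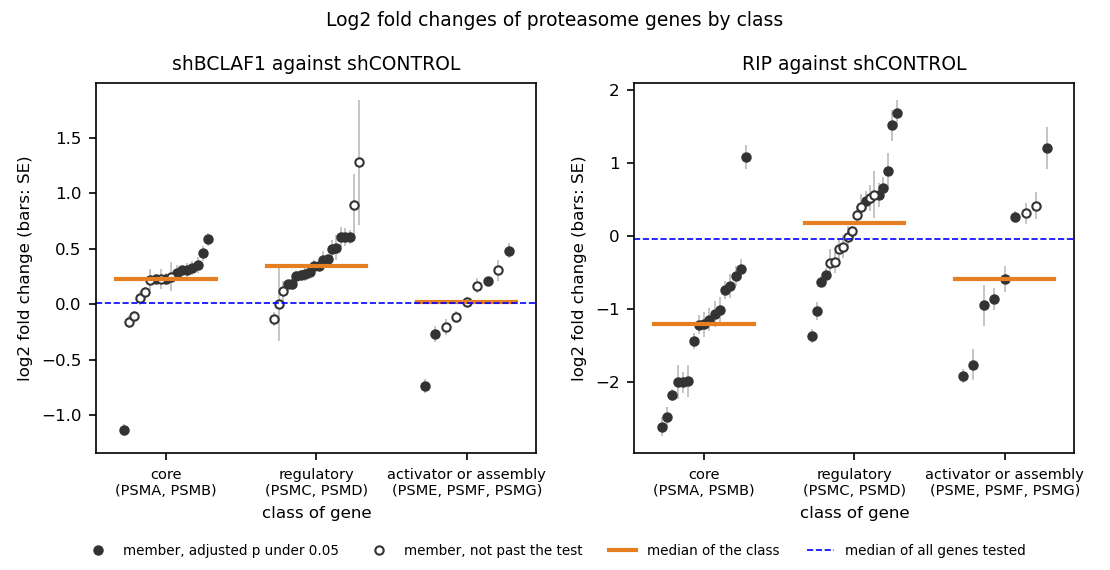
Fitted log2 fold changes with SE bars (y axis) of every tested member in the knock-down and in the RIP, by class (x axis). Filled points have an adjusted p under 0.05, orange lines are class medians and dashed lines the median of all genes tested. The core median lies at 0.23 in the knock-down and at -1.21 in the RIP, and the regulatory median at 0.34 and 0.17.

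Both PSMB5 and PSMB6 were among the most depleted members. PSMB5 stood at 66.1, 58.3 and 69.2 CPM in shCONTROL and 9.32, 10.6 and 11.8 in the RIP (log2 fold change -2.61 with SE 0.13, adjusted p 2.04e-04). PSMB6 stood at 52.8, 46.5 and 53.5 CPM in shCONTROL against 7.83, 9.58 and 9.92 in the RIP (log2 fold change -2.48 with SE 0.14, adjusted p 2.19e-04). All 3 RIP libraries of both genes lay below every shCONTROL library. PSMB7, the third catalytic gene, was at 38.1, 46.8 and 57.7 CPM in the RIP (log2 fold change -0.68 with SE 0.16, adjusted p 0.0137). Of the non-catalytic beta genes, PSMB2 was at 28.8, 26.9 and 27.3 CPM (log2 fold change -2.17 with SE 0.08, adjusted p 1.42e-04) and PSMB3 at 18.7, 14.9 and 27.5 CPM (log2 fold change -2.002 with SE 0.23, adjusted p 0.00104). PSMB4 and PSMB1 had a log2 fold change of -1.07 (adjusted p 0.00351) and a log2 fold change of -0.55 (adjusted p 0.0200). The PSMB1 call held in 9 of the 13 alternatives and was lost without any 1 shCONTROL library or RIP replicate 1.

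All 3 immunoproteasome subunits were depleted. PSMB8 stood at 35.5, 27.4 and 33.4 CPM in the RIP (log2 fold change -1.43 with SE 0.11, adjusted p 3.55e-04). PSMB9 stood at 4.13, 3.32 and 4.13 CPM (log2 fold change -1.15 with SE 0.16, adjusted p 0.00200), and PSMB10 at 18.7, 20.4 and 28.4 CPM (log2 fold change -1.21 with SE 0.17, adjusted p 0.00204). None of their RIP libraries reached the lowest shCONTROL library.

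In the alpha ring 6 of 7 genes were lower and PSMA7 was enriched. PSMA7 stood at 103, 99.7 and 102 CPM in shCONTROL and 198, 177 and 273 in the RIP (log2 fold change 1.08 with SE 0.17, adjusted p 0.00293), each RIP library lying above each shCONTROL library. PSMA6 and PSMA2 were at the low end, with a log2 fold change of -2.0 (adjusted p 2.99e-04) and a log2 fold change of -1.98 (adjusted p 9.16e-04). PSMA3, the member that fell most after knock-down, was at 76.9, 58.7 and 77.4 CPM in the RIP (log2 fold change -0.74 with SE 0.13, adjusted p 0.00427). Its call held in 12 of the 13 alternatives and was lost against the averaged RNA-seq groups. The overlapping antisense gene PSMA3-AS1 was higher in the RIP (log2 fold change 0.48, adjusted p 0.00863), a call lost with total counts. PSMA1, PSMA4 and PSMA5 had log2 fold changes of -0.45, -1.02 and -1.22. The PSMA1 call held in 8 of the 13 alternatives and was lost without any 1 shCONTROL library. The PSMA7 log2 fold change ran from 0.88 to 1.20 over the alternatives, so PSMA7 was higher but not enriched in some of them.

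Among the ATPases 3 of 6 were higher in the RIP and none lower. PSMC5 stood at 84.0, 83.4 and 92.3 CPM in shCONTROL and 242, 235 and 359 in the RIP (log2 fold change 1.68 with SE 0.18, adjusted p 9.05e-04). PSMC3 stood at 85.9, 77.2 and 86.2 CPM in shCONTROL against 188, 206 and 321 in the RIP (log2 fold change 1.51 with SE 0.22, adjusted p 0.00225). PSMC6 was at 48.4, 33.6 and 27.5 CPM (log2 fold change 0.89 with SE 0.25, adjusted p 0.0264), a call that held in 7 of the 13 alternatives. For PSMC3 and PSMC5 every RIP library lay above every shCONTROL library. PSMC2 and PSMC4 were not called (log2 fold changes -0.36 and 0.52, adjusted p 0.157 and 0.0559), and the copy PSMC1P1 was higher (log2 fold change 0.92, adjusted p 0.0179), a call lost without any 1 shCONTROL library.

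In the rest of the regulatory particle the genes split. The base scaffold PSMD2 was higher at 163, 195 and 216 CPM (log2 fold change 0.48 with SE 0.14, adjusted p 0.0269), while PSMD1 and PSMD4 were not called (log2 fold changes -0.36 and 0.29, adjusted p 0.0800 and 0.102). The PSMD2 call held in 6 of the 13 alternatives and was lost without any 1 shCONTROL library. In the lid, PSMD7 and PSMD6 were higher (log2 fold changes 0.65 and 0.57, adjusted p 0.0148 and 0.0302), calls that held in 11 and 7 of the 13 alternatives. PSMD13 was depleted, from 89.5, 81.0 and 87.3 CPM in shCONTROL to 40.4, 37.2 and 49.4 in the RIP (log2 fold change -1.03 with SE 0.12, adjusted p 0.00119). PSMD14 and PSMD3 were lower (log2 fold changes -0.62 and -0.54, adjusted p 0.00153 and 0.00663). Of the base chaperones PSMD5 was depleted, from 77.0, 71.6 and 69.6 to 29.8, 25.3 and 29.8 CPM (log2 fold change -1.37 with SE 0.10, adjusted p 2.96e-04). PSMD8, PSMD11, PSMD12, PSMD9 and PSMD10 were not called, with log2 fold changes from -0.19 to 0.40.

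The activators differed among themselves. PSME1 stood at 77.8, 76.9 and 74.4 CPM in shCONTROL and 133, 134 and 266 in the RIP (log2 fold change 1.21 with SE 0.29, adjusted p 0.0147), replicate 3 being the highest, and the call was lost on leaving out any 1 shCONTROL library. PSME2, its neighbour and partner, was at 42.5, 33.7 and 55.1 CPM (log2 fold change 0.41 with SE 0.18, adjusted p 0.115), overlapping shCONTROL. PSME4 was higher (log2 fold change 0.26, adjusted p 0.0352), a call that held in 7 of the 13 alternatives. PSME3 was at 111, 50.1 and 90.6 CPM (log2 fold change -0.95 with SE 0.28, adjusted p 0.0327), and its call was lost without any 1 shCONTROL library or RIP replicate 3. The inhibitor PSMF1 was depleted, from 134, 118 and 129 to 36.2, 31.4 and 33.4 CPM (log2 fold change -1.92 with SE 0.10, adjusted p 2.03e-04).

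The alpha-ring chaperones were lower in 3 of 4 cases. PSMG2 stood at 64.9, 67.1 and 64.7 CPM in shCONTROL and 26.3, 14.6 and 17.5 in the RIP (log2 fold change -1.76 with SE 0.22, adjusted p 0.00134). PSMG1 was at 27.0, 18.4 and 25.1 CPM (log2 fold change -0.87 with SE 0.15, adjusted p 0.00499). PSMG4 had a log2 fold change of -0.59 (adjusted p 0.0347), a call lost in 5 of the 13 alternatives, and PSMG3 was not called (log2 fold change 0.31, adjusted p 0.121).

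For some members, picked as examples, the values of both comparisons are set side by side here. The picks do not show how often the directions match. PSMB5 had a log2 fold change of 0.46 after knock-down and -2.61 in the RIP, PSMD2 0.61 and 0.48, and PSMC5 0.25 and 1.68. PSMB2 had 0.59 and -2.17, and PSMB6 had 0.36 and -2.48. PSMA3 had -1.13 and -0.74, and PSMG1 -0.73 and -0.87. Over the 46 members Spearman's rho of the genomic span of a gene with its log2 fold change was -0.12 for the knock-down and -0.16 for the RIP, a description across genes of the same libraries.

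The lists of other proteasome genes held calls in both directions in the RIP, as did all genes tested (24.6% higher and 24.7% lower). These shares also stand beside the counts of the lists that follow. Of 12 proteasome-associated genes 3 were higher and 5 lower (median log2 fold change -0.29), with AKIRIN2, which brings proteasomes into the nucleus, at a log2 fold change of 0.88 (adjusted p 0.00373) and POMP at a log2 fold change of -0.93 (adjusted p 0.00226). ECPAS had a log2 fold change of 0.85 (adjusted p 8.05e-04) and ZFAND5 a log2 fold change of -1.07 (adjusted p 0.00387). In the NFE2L1 pathway 2 of 10 were higher and 3 lower (median -0.14), with NGLY1, the enzyme that removes sugars from NFE2L1, at a log2 fold change of 0.69 (adjusted p 0.00690). NFE2L1 itself had a log2 fold change of 0.64 with SE 0.22 (adjusted p 0.0490), a call that held in 5 of the 13 alternatives. SYVN1 had a log2 fold change of -1.21 (adjusted p 2.96e-04), VCP a log2 fold change of -1.003 (adjusted p 0.00108), a call lost in the fits of all 9 libraries, and KEAP1 a log2 fold change of -0.45 (adjusted p 0.00975).

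Of the 6 ubiquitin and E1 genes 2 were higher and 1 lower (median -0.09). UBB stood at a log2 fold change of 1.55 (adjusted p 0.00692), and the activating enzyme UBA1 at a log2 fold change of -1.41 (adjusted p 8.21e-04). Of the 9 shuttle and VCP cofactor genes 4 were higher and 2 lower (median 0.27). UFD1 was higher (log2 fold change 0.79, adjusted p 0.00435), while UBQLN1 and UBQLN2 were lower (log2 fold changes -1.28 and -0.87, adjusted p 3.55e-04 and 0.00193).

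Of the 9 antigen processing genes 1 was higher and 6 lower in the RIP (median -0.59). TAPBP had a log2 fold change of -2.15 (adjusted p 7.42e-04) and B2M, the light chain of MHC class I, a log2 fold change of -1.49 (adjusted p 3.14e-04). TAP2, a peptide transporter subunit encoded beside PSMB8, had a log2 fold change of -0.86 (adjusted p 0.00297), and NLRC5 was higher with a log2 fold change of 0.71 (adjusted p 5.67e-04). The immunoproteasome subunits and most of this list were thus lower together.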

How the data were processed

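The deposited table holds estimated counts for each gene, whole numbers with no normalization, for stranded total RNA without ribosomal RNA. The submitters' processing notes name STAR 2.7.11b, StringTie 2.2.3 and hg38, without saying which step used which. An entry that names no gene held 2.18% to 3.75% of the counts in the 8 libraries with a value and was left out.

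The knock-down and the RIP were fitted apart on 6 libraries each with edgeR 4.0.16 (R 4.3.3): default low-count filter, TMM, prior count 2, quasi-likelihood F-test, Benjamini-Hochberg adjustment over all genes, threshold 0.05. The fits were also run on simulated counts with a common spread for all genes and groups. In the data, RIP replicates differed more from each other than those of the other groups, so no conclusion is drawn from the simulation. Alternatives used DESeq2 1.42.0, other scaling, filters, samples and a replicate block, and left out each library. CPM carry counting error and the spread between replicates. Replicate libraries differed by more than sampling noise.

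Members and lists were chosen with earlier results of these data known. The rule named the catalytic, immunoproteasome, PSME, PSMF and PSMG genes, PSMD4 and PSMD14, up to 4 members per class and direction with the largest called changes, and up to 4 genes per list with the smallest adjusted p. Other members were named to account for all. Some genes of the lists are not reported here. Its clause on the highest and lowest level was not applied, as no transcript lengths were used. Promoters and positions are from RefSeq (GRCh38.p14).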

Additional observations from a re-analysis of the deposited data

How the results depend on the processing

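With 1 fit of all 9 libraries, 7 members were higher after knock-down in place of 26. With a replicate block there were 29 higher and 3 lower after knock-down and 6 higher and 23 lower in the RIP. Deviations of same-numbered libraries correlated at -0.03 to 0.07, and those of unlike numbers at -0.07 to 0.07. For the knock-down alone the ranges were 0.02 to 0.07 and -0.05 to 0.01. Such weak values from 3 libraries per group cannot tell whether the replicate numbers pair the samples. Scaling by total counts gave knock-down medians of 0.28 (core) and 0.40 (regulatory), and a regulatory RIP median of 0.055, while it moved the RIP median of all genes from -0.05 to -0.16. Against the averaged RNA-seq groups the regulatory RIP median was -0.036. Leaving out 1 library gave 21 to 26 members higher after knock-down, medians of 0.22 to 0.30 (core) and 0.31 to 0.39 (regulatory), and 3 to 10 members higher in the RIP. The median of the activator or assembly genes after knock-down ran from -0.013 to 0.059. The cause was not tested. The other medians kept their sign in every alternative.

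Of the named genes, signs turned only for values that did not pass the test. PSMD9 after knock-down was -0.0046 with no filter, -0.089 with the replicate block and between -0.19 and 0.32 with 1 library left out. In the RIP its values lay between -0.11 and 0.10 when single libraries were left out. PSME4 after knock-down ran from -0.013 to 0.059 and NFE2L1 from -0.049 to 0.013 with 1 library left out, and NFE2L1 was 0.026 with total counts. In the RIP PSMC1 was -0.057 against the averaged RNA-seq groups, and PSMD12 -0.054 with total counts and -0.062 against those groups. Over the alternatives, single member values after knock-down lost a call 48 times and gained one 13 times, and in the RIP 50 and 14 times. PSMC1, with 12 to 73 counts in the RNA-seq libraries, had the fewest counts of the members tested, and its SE of 0.56 was the widest after knock-down.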
